A study of Schizosaccharomyces pombe with 6 samples.

Results

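The 10 genes described here encode enzymes that make leucine, lysine, serine and methionine in *Schizosaccharomyces pombe* (fission yeast). They were taken by systematic identifier from the 7001 genes of the RNAseq tables and are *leu1* (SPBC1A4.02c), *leu2* (SPAC9E9.03), *leu3* (SPBC3E7.16c), *lys1* (SPAP7G5.04c), *lys3* (SPAC227.18), *lys4* (SPBC1105.02c), *hom3* (SPBC19F5.04), *ser3* (SPCC364.07), *met17* (SPBC428.11) and *met26* (SPAC9.09). All 10 had reads in every library and passed the filter on low values in every comparison. The identifiers and symbols match those of the reference annotation for all 10.

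RNA was sequenced from cells kept for 4 hours without nitrogen at 25 °C, with 2 libraries in each of 3 groups. The WT group is the h- 972 strain. The *igo1*Δ-labelled group is h- igo1::kanMX6, which is meant to lack Endosulfine, the inhibitor of the PP2A/B55 phosphatase. The group labelled *igo1*Δ *nmt41:GST:pab1* + thiamine is h- nmt41-GST-pab1-KanMx6 igo1::natMx6, in which *pab1*, the B55 subunit gene, is driven by a thiamine-repressible promoter. Its libraries are called *pab1*-repressed below. The words under or after *pab1* repression mean that group compared with the *igo1*Δ-labelled one. They follow the label, and *pab1* level as a cause was not tested. The labels give growth in supplemented yeast extract medium and in minimal medium with thiamine, and washing with thiamine, for all strains together. The study's RNAseq methods give minimal medium for WT and *igo1*Δ cells and do not describe the *nmt41:GST:pab1* strain. Which culture had amino acids in its growth medium is therefore not stated per strain. The replicates are labelled biological, and the labels do not say whether they came from separate clones.

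The checks of the labels bear on every comparison. *igo1* had 2029 and 2075 normalized reads in WT, 1832 and 1713 in the *igo1*Δ-labelled libraries, and 1836 and 4832 in the *pab1*-repressed libraries. Reads counted on the deleted gene were thus kept, and where in the gene they fall was not examined. These counts do not show the deletion, so the group is called *igo1*Δ-labelled throughout. *pab1* had 3085 and 2994 normalized reads in WT, 2361 and 2108 in the *igo1*Δ-labelled libraries, and 1827 and 1034 in the *pab1*-repressed libraries. The *pab1*-repressed group was not called lower than WT (log2 fold change -1.15 ± 0.32 SE, limma adjusted p = 0.226). It was not called lower than the *igo1*Δ-labelled group either (-0.73 ± 0.33, limma adjusted p = 0.199). *pab1* was called lower in the *igo1*Δ-labelled libraries than in WT (-0.46 ± 0.08, edgeR adjusted p = 0.00135). *nmt1*, which thiamine represses, stood at 158575 to 234994 normalized reads in the WT and *igo1*Δ-labelled libraries and at 52.5 and 47.0 in the *pab1*-repressed ones. Thiamine response, *nmt41* allele and *pab1* level therefore differ together and cannot be told apart in any comparison with that group. Totals ran from 14791399 to 18809513 reads on genes. The *pab1*-repressed pair varied most between replicates, with a chi-square per gene of 418.5 against 9.26 in WT and 40.1 in the *igo1*Δ-labelled pair.

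Leucine is made from the precursor of valine by isopropylmalate synthase (*leu3*), isopropylmalate dehydratase (*leu2*) and isopropylmalate dehydrogenase (*leu1*). Fungi make lysine through aminoadipate, starting with homocitrate synthase (*lys4*) and passing aminoadipate-semialdehyde dehydrogenase (*lys1*) and saccharopine dehydrogenase (*lys3*). Aspartate kinase (*hom3*) opens the route from aspartate to threonine and methionine, homocysteine synthase (*met17*) joins sulfide to the carbon chain, and homocysteine methyltransferase (*met26*) completes methionine. Phosphoglycerate dehydrogenase (*ser3*) draws serine from glycolysis. In fission yeast, amino acid shortage acts through the kinase Gcn2 and the GATA-type transcription factor Fil1, which binds genes of amino acid synthesis. The same role belongs to Gcn4 in budding yeast, which binds TGACTC.

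Because the 10 genes moved together, as described below, the sequence before their annotated transcript starts was searched for TGACTC, for the GATA-type motif GATAAG and for the E-box CACGTG. Sequences were read by script from the ASM294v3 assembly of RefSeq, 5′ to 3′ on the strand of the gene, and both strands were searched. The submitters' processing notes name ASM294v2, so no coordinates are printed. Genes on chromosome I are *leu2*, *lys1*, *lys3* and *met26*, those on chromosome II are *leu1*, *leu3*, *lys4*, *hom3* and *met17*, and *ser3* is on chromosome III. In the 250 bases before the transcript start, TGACTC lay before 1 of the 10 genes and before 5.63% of all 5111 promoters. GATAAG lay before 0 of the 10 and 10.2% of all, and CACGTG before 0 of the 10 and 1.33% of all. In the 500 bases before the start codon, TGACTC lay before *leu3* and *lys1*, against 10.3% of all genes. GATAAG and CACGTG were not found there before any of the 10, against 18.3% and 2.27% of all. A match is a string of letters and not a measured binding site, and a missing match says only that these letters are not in the window. The match in the shorter window is 216 bases before the *leu3* transcript start and 482 before its start codon, on the minus strand, where an exon of the neighbouring gene SPBC4F6.04 is annotated too. It is shown with 12 bases on each side and the motif in capitals.
leu3: caacgctcatctTGACTCtatagtgtaaaa
The windows of 120 bases that end at the transcript start are shown for the 4 genes whose window holds no annotated exon. None of them contains a searched motif, so they carry no capitals, and their A and T content was 58.3% (*leu2* and *leu3*), 65.8% (*hom3*) and 59.2% (*met17*).
leu2: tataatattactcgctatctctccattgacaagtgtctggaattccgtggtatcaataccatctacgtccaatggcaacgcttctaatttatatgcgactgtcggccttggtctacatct
leu3: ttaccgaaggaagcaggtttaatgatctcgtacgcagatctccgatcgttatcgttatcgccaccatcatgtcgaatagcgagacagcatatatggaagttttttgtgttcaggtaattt
hom3: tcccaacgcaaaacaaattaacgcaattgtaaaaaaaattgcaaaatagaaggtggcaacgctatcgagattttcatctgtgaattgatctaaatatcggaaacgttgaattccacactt
met17: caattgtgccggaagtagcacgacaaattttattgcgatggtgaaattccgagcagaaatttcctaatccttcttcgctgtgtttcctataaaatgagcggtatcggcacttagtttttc

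All 10 genes had more reads in the *igo1*Δ-labelled libraries than in WT, by 3.91-fold (*leu1*) to 21.0-fold (*met17*). The median log2 fold change of the 10 was 3.05, with a range of 1.95 to 4.38, beside -0.03 over the 5931 genes tested. All 10 were called higher by edgeR's quasi-likelihood test at an adjusted p under 0.05, where 29.6% of all genes tested (1754) were called higher and 30.1% (1785) lower. Both *igo1*Δ-labelled libraries lay above both WT libraries for all 10, as for 40.2% of all genes tested. The adjusted p of the 10 ran from 4.26e-08 (*hom3*) to 1.39e-05 (*met26*). Scaling to the upper quartile split the calls over all genes into 1467 higher and 2278 lower and moved the median of all genes to -0.14, and the median of the 10 was then 2.94. Ordered from the highest log2 fold change among the genes tested, *met17* stood at place 26, *leu3* at 55, *lys4* at 58, *ser3* at 62, *hom3* at 69, *lys3* at 77, *leu2* at 87, *lys1* at 125, *met26* at 158 and *leu1* at 198. The share of all reads on genes that fell on the 10 was 0.325% and 0.338% in WT, 1.64% and 1.77% in the *igo1*Δ-labelled libraries, and 0.356% and 0.224% in the *pab1*-repressed libraries. In such bulk samples, fewer cells expressing a gene and less RNA per cell cannot be told apart.

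In the *pab1*-repressed libraries all 10 genes lay below the *igo1*Δ-labelled libraries, by 5.17-fold (*met26*) to 47.3-fold (*met17*). Of the 10, 9 were called lower by limma, where 6.12% of the 6046 genes tested (370) were called lower and 2.91% (176) higher. *met26* was not called (adjusted p = 0.053). Both *pab1*-repressed libraries lay below both *igo1*Δ-labelled ones for all 10, as for 32.9% of all genes tested. The median log2 fold change of the 10 was -3.35, with a range of -5.58 to -2.52, beside 0.00 over all genes tested. These log2 fold changes are on the log2(normalized count + 1) scale. Differences between groups written as -fold, here and elsewhere, are ratios of group means of TMM-normalized reads. Both comparisons share the *igo1*Δ-labelled libraries, so their values stand side by side and are not separate evidence. Upper-quartile scaling split the calls over all genes into 247 higher and 287 lower with an all-gene median of 0.19, and the median of the 10 was then -3.17. Without replicate 1 of the *igo1*Δ-labelled libraries 123 genes were called instead of 546, and without its replicate 2 151 genes. Without replicate 1 of the *pab1*-repressed libraries 3866 were called, and without its replicate 2 3335. In these 4 fits 9 to 10 of the 10 genes were called lower.

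**Figure D1:**
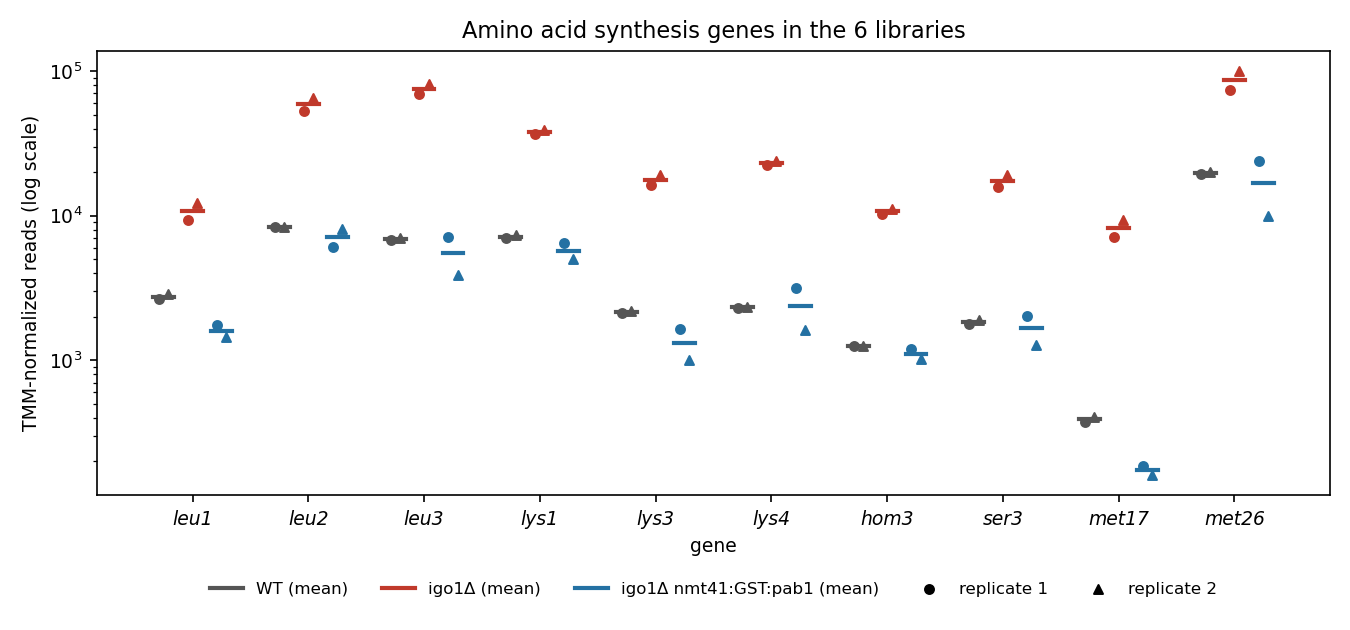
TMM-normalized reads (log scale) of each gene on the vertical axis, for the 10 genes along the horizontal axis. Circles are replicate 1, triangles replicate 2 and bars the mean of the 2 libraries of a group. For every gene both *igo1*Δ-labelled libraries (red) lie above both WT (grey) and both *pab1*-repressed (blue) libraries, and the blue pair is the most spread for 8 of the 10, up to 2.39-fold for *met26*, while for *leu1* and *met17* the red pair is.

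The values below are reads scaled by TMM over all 6 libraries to their mean library size, given as replicate 1 and replicate 2. Among the leucine genes the fold was largest for *leu3*, the entry enzyme. *leu3* had 6787 and 6957 normalized reads in WT, 68903 and 80910 in the *igo1*Δ-labelled libraries, and 7073 and 3905 in the *pab1*-repressed libraries. Its *pab1*-repressed pair lay 1 on each side of WT, while both *igo1*Δ-labelled libraries were above all 4 others. *leu3* rose by 3.43 ± 0.14 (log2, SE) against WT with an edgeR adjusted p = 3.51e-07, and fell by 3.86 ± 0.37 under *pab1* repression with a limma adjusted p = 0.0136. *leu2*, the dehydratase of the next step, had 8307 and 8402 normalized reads in WT, 52967 and 64739 in the *igo1*Δ-labelled libraries, and 6082 and 8141 in the *pab1*-repressed libraries. *leu2* is the 1 gene of the 10 whose second *pab1*-repressed library was the higher one, with a replicate ratio of 0.747. The fold of *leu2* over WT was 7.04. *leu1*, the dehydrogenase, had 2647 and 2857 normalized reads in WT, 9307 and 12190 in the *igo1*Δ-labelled libraries, and 1741 and 1460 in the *pab1*-repressed libraries. The 3 groups of *leu1* did not overlap, and at 3.91-fold it moved least against WT of the 10.

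The lysine genes were ordered with the entry enzyme *lys4* first. *lys4* had 2316 and 2328 normalized reads in WT, 22433 and 23853 in the *igo1*Δ-labelled libraries, and 3169 and 1610 in the *pab1*-repressed libraries. Replicates agreed closely in WT and in the *igo1*Δ-labelled group, and the *pab1*-repressed pair lay on both sides of WT with a replicate ratio of 1.97. *lys4* rose by 3.30 ± 0.10 (log2, SE; edgeR adjusted p = 5.85e-08). *lys3*, the enzyme of the last step, had 2126 and 2200 normalized reads in WT, 16285 and 19198 in the *igo1*Δ-labelled libraries, and 1633 and 1012 in the *pab1*-repressed libraries. Both *pab1*-repressed libraries of *lys3* were below WT, and its fall against the *igo1*Δ-labelled libraries was 13.4-fold. *lys1*, which reduces aminoadipate, had 6955 and 7339 normalized reads in WT, 36868 and 39031 in the *igo1*Δ-labelled libraries, and 6430 and 5010 in the *pab1*-repressed libraries. The groups of *lys1* did not overlap, with the *pab1*-repressed pair the lowest and a 5.31-fold rise over WT.

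Of the genes on the routes to serine and methionine, *met17* showed the widest span of the 10. *met17* had 375.2 and 404.5 normalized reads in WT, 7112 and 9290 in the *igo1*Δ-labelled libraries, and 186.2 and 160.3 in the *pab1*-repressed libraries. It also had the fewest reads in WT, where 347 and 409 were counted before scaling. *met17* rose by 4.38 ± 0.14 (log2, SE; edgeR adjusted p = 7.61e-08) and fell by 5.58 ± 0.23 under *pab1* repression (limma adjusted p = 0.00431). *met26*, the last enzyme of methionine synthesis, had 19513 and 20079 normalized reads in WT, 74282 and 100126 in the *igo1*Δ-labelled libraries, and 23764 and 9949 in the *pab1*-repressed libraries. The *pab1*-repressed pair of *met26* differed 2.39-fold, the most of the 10 genes, and the fall against the *igo1*Δ-labelled libraries was -2.52 with a 95% interval of -3.87 to -1.18. Over the alternatives the adjusted p of *met26* ran from 1.45e-06 without *pab1*-repressed replicate 1 to 0.152 without *igo1*Δ-labelled replicate 2. It was also called without *pab1*-repressed replicate 2 (2.49e-04) and with DESeq2 (3.27e-05), and not called without *igo1*Δ-labelled replicate 1 (0.109) or with edgeR (0.0653).

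*hom3*, the aspartate kinase, had 1248 and 1255 normalized reads in WT, 10342 and 11189 in the *igo1*Δ-labelled libraries, and 1199 and 1019 in the *pab1*-repressed libraries. The *pab1*-repressed pair lay just below WT, and *hom3* had the smallest standard error of the 10 in both comparisons that it was called in (3.09 ± 0.08 against WT, and a fall of 3.32 ± 0.20). *ser3*, the first enzyme of serine synthesis, had 1781 and 1899 normalized reads in WT, 15891 and 19038 in the *igo1*Δ-labelled libraries, and 2034 and 1283 in the *pab1*-repressed libraries. *ser3* was 9.49-fold above WT, and its *pab1*-repressed pair enclosed the WT values.

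Against WT, the *pab1*-repressed libraries showed none of the 10 genes as called by limma or by edgeR, where 0.0331% of the 6035 genes tested (2) were called lower and 0 higher. At an unadjusted p under 0.05, 2 of the 10 and 1108 of all genes passed in limma. The 2 were *leu1* (limma adjusted p = 0.188) and *met17* (limma adjusted p = 0.176), and DESeq2 called *met17* alone of the 10 (adjusted p = 0.0159), with 153 of all genes called lower and 194 higher. The median log2 fold change of the 10 was -0.35, with a range of -1.17 to -0.05, beside -0.01 over all genes. Both *pab1*-repressed libraries lay below both WT libraries for *leu1*, *leu2*, *lys1*, *lys3*, *hom3* and *met17*, and above them for none. Over all genes tested, 28.0% lay below in this way and 27.8% above. The group mean stood at 44.4% of WT for *met17*, 58.1% for *leu1* and 61.2% for *lys3*, and between 79.9% (*leu3*) and 103% (*lys4*) for the other 7. The intervals of the log2 fold change reached from -1.74 to -0.61 for *met17* and from -1.25 to -0.34 for *leu1*. They held 0 for the other 8 and were widest for *met26* (-1.69 to 0.95). These counts turned on single libraries. Without *pab1*-repressed replicate 1, 9 of the 10 were called lower than WT, and without its replicate 2, 4 were called lower while *lys4* and *met26* were called higher. These fits called about as many of all genes in each direction, with 36.2% lower and 33.8% higher without replicate 1, and 30.9% lower and 29.9% higher without replicate 2.

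**Figure D2:**
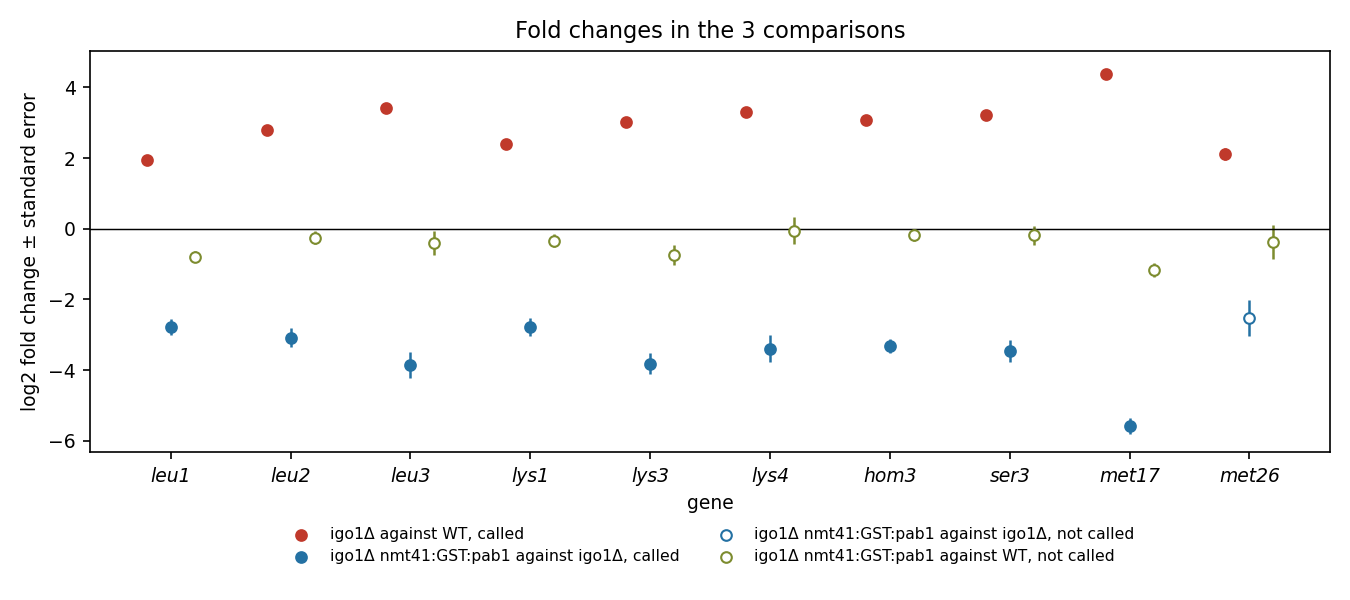
log2 fold change of each of the 10 genes with its standard error (vertical bars, hidden by the symbol where shorter). Red is the *igo1*Δ-labelled group against WT, blue *pab1*-repressed against that group and green *pab1*-repressed against WT, with filled symbols for called and open symbols for uncalled genes. Red symbols lie between 1.95 and 4.38, blue ones between -5.58 and -2.52 with *met26* open, and the green ones, all open, between -1.17 and -0.05.

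Levels of different genes were compared per kilobase of annotated exon. In WT, *met26* was the highest of the 10 at 7134 ± 144 normalized reads per kilobase (SD, n = 2), followed by *leu2* (3142) and *leu3* (3128), whose libraries overlapped. *leu1* (2142), *lys1* (1634), *lys3* (1270), *lys4* (1261), *ser3* (817), *hom3* (689) and *met17* (209) followed in that order, and of these only *lys3* and *lys4* overlapped. In the *igo1*Δ-labelled libraries, *leu3* was at 34090 ± 3864 normalized reads per kilobase and *met26* at 31420 ± 6585, and they overlapped. *leu2* (22130), *lys4* (12570), *lys3* (10420), *lys1* (8676), *leu1* (8365), *ser3* (7755), *hom3* (5925) and *met17* (4390) came next, and the neighbours *lys1*, *leu1* and *ser3* overlapped. In the *pab1*-repressed libraries *met26* was again at the top (6074 ± 3520 normalized reads per kilobase) and *met17* at the bottom (92.8 ± 9.84). *met17* was thus the lowest of the 10 per kilobase in every group, although its fold change was the largest of the 10.

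Over the 6 libraries, the gene outside the 10 whose profile lay closest to their median was *hom2*, aspartate semialdehyde dehydrogenase, which acts directly after *hom3*. Its root-mean-square difference from the median centred log2 profile was 0.09 over 6 libraries, among 6031 genes. The next were *maa1*, an aspartate aminotransferase (0.22), *gdh1*, the NADP-specific glutamate dehydrogenase (0.22), SPBC18E5.15 (0.26) and SPBC1271.08c, an uncharacterized protein (0.26). Of the 10 genes themselves, *ser3* lay closest to their median (0.10) and *met17* farthest (0.88). *hom2* had 1199 and 1176 normalized reads in WT, 8977 and 10616 in the *igo1*Δ-labelled libraries, and 1155 and 885.8 in the *pab1*-repressed libraries. These measures describe 3 groups of 2 libraries, and the points of a group share strain, culture treatment and scaling.

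Other genes of these pathways and of linked amino acid metabolism were counted in 5 lists, of which 45 genes were in the tables. The 45 include 11 histidine and tryptophan genes. They also include *zip1*, a transcription factor gene in the list of aspartate family, methionine and sulfur genes, which was called higher against WT (1.16). Of the 45, 39 were called higher and 2 lower in the *igo1*Δ-labelled libraries against WT, with a median of 1.33 (log2). Over all genes tested, 29.6% were called higher and 30.1% lower. Under *pab1* repression, 23 of the 45 were called lower and 1 higher, with a median of -1.46. Over all genes tested, 6.12% were called lower and 2.91% higher in that comparison. Against WT 0 of the 45 were called by limma or edgeR, with a median of -0.22, while 6 had an unadjusted p under 0.05 in limma and DESeq2 called 2 lower. In one fit of all 6 libraries, 24 of the 45 were called higher and 0 lower in the *igo1*Δ-labelled libraries against WT (edgeR). At an unadjusted p under 0.05 there were 35. Of all 6031 genes, that fit called 503 higher and 356 lower. The DESeq2 counts of the 45 were 38 and 1, beside 1632 higher and 1416 lower of 5931 genes. Leaving out single libraries moved the counts of the other comparisons, for the 45 as over all genes. Under *pab1* repression the count of 23 called lower was not stable. With every library kept it ran from 20 (upper-quartile scaling) to 32 (all 6 libraries in one fit). It was smaller without either *igo1*Δ-labelled library and larger without either *pab1*-repressed library. The median of the 45 in this comparison was -1.55 without *igo1*Δ-labelled replicate 1 and -1.41 without its replicate 2. It was -1.60 without *pab1*-repressed replicate 1 and -1.25 without its replicate 2. Against WT, 27 were called lower and 5 higher without *pab1*-repressed replicate 1, and 20 lower and 11 higher without its replicate 2, fits whose shares over all genes are given above.

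The counts of each list below stand beside the same shares over all genes. These were 29.6% called higher against WT and 6.12% called lower after *pab1* repression. The 6 other genes of branched-chain amino acid synthesis were all called higher in the *igo1*Δ-labelled libraries (median 2.12). Of these, 5 were called lower after *pab1* repression (median -2.44). *ilv5*, the reductoisomerase of valine and isoleucine synthesis, rose by 2.83 ± 0.14 (log2, SE; edgeR adjusted p = 8.15e-07). *eca39*, the branched-chain aminotransferase that completes leucine, rose by 2.75 ± 0.14 and fell by 2.93 ± 0.24 after *pab1* repression, and *ilv3*, the dihydroxy-acid dehydratase, fell by 2.58 ± 0.22. *ilv5* was the uncalled gene in the second comparison (-3.17, limma adjusted p = 0.055), with 9667 and 2621 normalized reads in its *pab1*-repressed libraries.

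Among 4 other lysine genes, 3 were called higher and 1 lower against WT, and each was called the other way after *pab1* repression. *lys12*, homoisocitrate dehydrogenase, had 1453 and 1464 normalized reads in WT, 15342 and 18936 in the *igo1*Δ-labelled libraries, and 835.7 and 770.6 in the *pab1*-repressed libraries. It rose by 3.54 ± 0.12 and then fell by 4.44 ± 0.21, and *lys2*, homoaconitate hydratase, rose by 2.07 ± 0.11 and fell by 2.50 ± 0.21. *lys7* was called the opposite way. It encodes the phosphopantetheinyl transferase that loads the Lys1 enzyme with its cofactor. *lys7* had 250.9 and 289.8 normalized reads in WT, 155.8 and 146.0 in the *igo1*Δ-labelled libraries, and 343.0 and 446.2 in the *pab1*-repressed libraries. It fell by 0.86 ± 0.15 (edgeR adjusted p = 0.00131, and 0.0554 in one fit of all 6 libraries). After *pab1* repression it rose by 1.33 ± 0.25 (limma adjusted p = 0.0471). This rise was not called without the filter on low values or with the replicate number as a block (limma adjusted p = 0.0646). Nor was it called without either of the *igo1*Δ-labelled libraries.

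In serine and one-carbon metabolism 6 of 8 genes were called higher (median 0.57) and 1 was called lower after *pab1* repression (median -0.77). *ser1*, the aminotransferase that follows *ser3*, rose by 2.28 ± 0.10 and was the gene that fell (2.97 ± 0.21 lower on the log2 scale). *shm1*, a serine hydroxymethyltransferase, rose by 1.77 ± 0.10. *shm2*, which encodes the other serine hydroxymethyltransferase, was not called in either comparison (-0.15 and -0.23).

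In the list of aspartate family, methionine and sulfur genes, 13 of 16 were called higher and 1 lower (median 0.80), and 6 were called lower after *pab1* repression (median -1.24). *hom2* rose by 3.03 ± 0.10 and fell by 3.31 ± 0.23. *sua1*, the sulfate adenylyltransferase, rose by 1.92 ± 0.13, and *cys11*, a cysteine synthase, fell by 1.85 ± 0.36 after *pab1* repression (limma adjusted p = 0.0488). The gene called lower against WT was *cys12*, a cysteine synthase-like protein, which fell by 0.27 ± 0.07 (edgeR adjusted p = 0.0124) and was not called without either of the WT libraries, with DESeq2 or in one fit of all 6 libraries. The list of histidine and tryptophan genes, which lie outside the 4 amino acids, had 11 of 11 called higher (median 1.36) and 8 called lower after *pab1* repression (median -1.46). *his4* rose by 2.24 ± 0.08 and *his1* by 1.94 ± 0.07, and after *pab1* repression *his4* fell by 2.48 ± 0.17 and *his2* by 2.40 ± 0.18.

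The list of regulators holds *fil1*, *gcn2* and *gcn1*, and all 3 rose in the *igo1*Δ-labelled libraries. *fil1* had 60787 and 62376 normalized reads in WT, 109567 and 130454 in the *igo1*Δ-labelled libraries, and 100936 and 106302 in the *pab1*-repressed libraries. Both mutant groups of *fil1* were above WT and did not overlap each other. *fil1* rose by 0.95 ± 0.16 in the *igo1*Δ-labelled libraries (edgeR adjusted p = 0.00105), *gcn2* by 1.01 ± 0.08 and *gcn1*, its activator, by 0.55. Under *pab1* repression their log2 fold changes were -0.24 (*fil1*, limma adjusted p = 0.671), -0.80 (*gcn2*, 0.0706) and -0.62 (*gcn1*, 0.132). Against WT *fil1* was at 0.75 in the *pab1*-repressed libraries (limma adjusted p = 0.222).

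**Figure D3:**
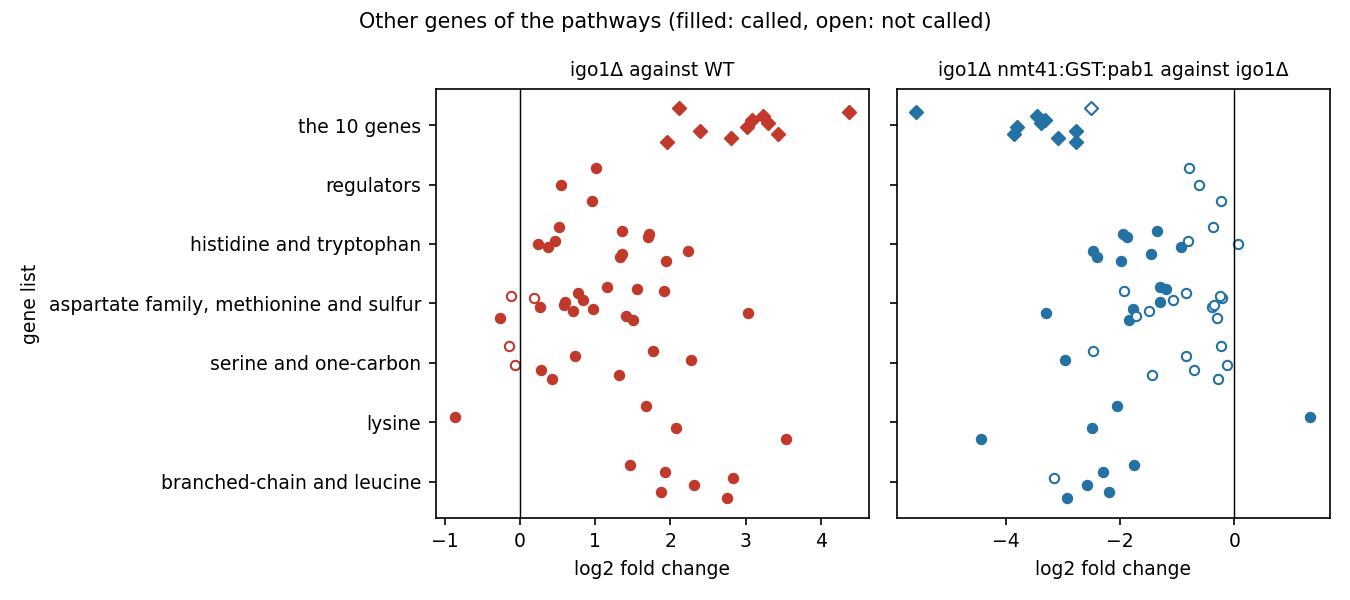
log2 fold change of every gene of the 5 lists, the regulators and the 10 genes (diamonds), with the *igo1*Δ-labelled group against WT on the left and *pab1*-repressed against that group on the right. Each symbol is 1 gene, filled where called, and vertical offsets only separate symbols. On the left 39 of the 45 listed genes are called above 0 with *lys7* at -0.86, and on the right 23 are called below 0 with *lys7* at 1.33.

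Because the study concerns transcripts rich in the lysine codon AAA, codon use of the 10 genes was counted in the ASM294v3 coding sequences. Lysine is encoded by AAA or AAG. AAA made up 9.80% of the lysine codons of *met26*, 16.7% of *ser3*, 26.9% of *leu1*, 27.3% of *met17*, 39.1% of *lys4*, 50% of *leu3*, 54.5% of *lys3*, 54.8% of *leu2*, 59.3% of *hom3* and 69.0% of *lys1*. Of the 10, 9 lay below the median of 64.3% over 5105 coding genes, and the median of the 10 was 44.6%. *met26* had a lower AAA share than all but 1.80% of coding genes, and *lys1* stood at percentile 66.6. The extremes are shown as 30 codons each with the lysine codons in capitals. Codons 173 to 202 of *met26* hold 6 AAG and 0 AAA, and codons 126 to 155 of *lys1* hold 2 AAG and 3 AAA.
met26: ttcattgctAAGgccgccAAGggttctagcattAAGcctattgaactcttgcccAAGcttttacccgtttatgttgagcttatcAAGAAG
lys1: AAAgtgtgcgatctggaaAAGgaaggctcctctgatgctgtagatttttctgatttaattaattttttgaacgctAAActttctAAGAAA
*met26* and *lys1*, lowest and highest of the 10 in AAA share, stood next to each other in fold over WT (4.41-fold and 5.31-fold). Whether AAA share and fold go together over the 10 genes was not tested. Protein levels were not measured in these files.

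**Figure D4:**
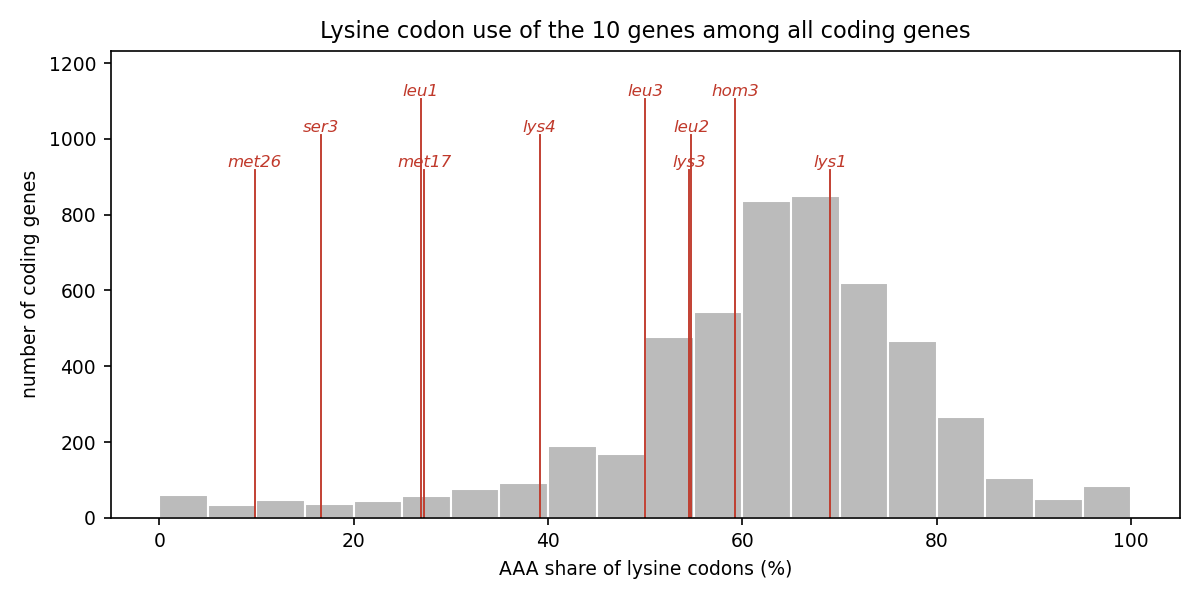
Number of coding genes (vertical axis) by AAA share of lysine codons in percent (horizontal axis, bins of 5 points). Red lines mark the 10 genes, and their heights only separate the names. *met26* at 9.80% and *ser3* at 16.7% lie in the low tail, and *lys1* at 69.0% lies above the median of 64.3%.

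No 50-base stretch of the 10 genes occurs a second time in the assembly. Other annotated genes in the tables overlap *lys1*, *lys3*, *lys4*, *hom3*, *ser3* and *met26*. Those overlapping genes had at most 2368 reads in any library. Whether strand was used in counting is not given in the sources used here. Reads of a gene and of an antisense partner may therefore be mixed for *lys1*, *lys3*, *hom3*, *ser3* and *met26*. The same holds for *leu1*, *leu2* and *lys4*, over which the reference annotates antisense transcripts that are not among the counted genes. It annotates none over *leu3* and *met17*. SPBC1105.03c overlaps *lys4* and SPNCRNA.742 overlaps *met26* on the same strand, where strand would not separate the reads.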

How the data were processed

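RNAseq libraries (Illumina TruSeq Stranded Total RNA, 2 per group) came from WT, *igo1*Δ and *igo1*Δ *nmt41:GST:pab1* + thiamine cells. The submitters' processing notes name FastQC 0.11.8, Trimmomatic 0.38, HISAT2 2.1.0, featureCounts (Subread 1.6.3), DESeq2 and ASM294v2. The authors deposited a normalized signal per gene, namely read counts divided by DESeq2 size factors, in one table of WT and *pab1*-repressed libraries and another of *pab1*-repressed and *igo1*Δ libraries. Dividing each column by its smallest positive value gave whole reads for 100% of values (tolerance 0.01), identical for the *pab1*-repressed libraries of both tables. No table holds WT and *igo1*Δ together, so recovered reads entered that comparison, by edgeR 4.0.16 (TMM, quasi-likelihood test). The other comparisons used limma 3.58.1 with a trend on log2(normalized count + 1). Genes had a mean of at least 10, and calls needed a Benjamini-Hochberg adjusted p under 0.05 over all genes tested. Each test compares 2 libraries with 2. Its p-value sets the difference between groups against the spread between these libraries, with variance estimates that draw on all genes.

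The 10 genes and all lists were chosen with earlier results of these data known. Named besides them are up to 2 called genes per list, direction and comparison, the regulators, *igo1*, *pab1* and *nmt1*, and the 5 genes of most similar profile. *ilv5* in the second comparison, *shm2* and *zip1* were named after their values were seen. Of 7001 identifiers 6863 (98%) matched ASM294v3, and 3 of 48 listed symbols did not. Alternatives were no filter, a mean of at least 50, pseudocounts of 0.1 and 10, upper-quartile scaling, edgeR, limma or DESeq2 1.42.0 in place of the main test, a replicate block, all 6 libraries in one fit, and each library left out. The steps were tested on simulated data, in R 4.3.3 and Python 3.11.15.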

Additional observations from a re-analysis of the deposited data

How the results depend on the processing

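All 10 genes were called higher in the *igo1*Δ-labelled group under each of the 11 alternatives, with medians of 2.94 to 3.15. Fitting all 6 libraries together, which shares the wider spread of the *pab1*-repressed pair, called 503 genes higher and 356 lower there, 859 in place of 3539. Against the *igo1*Δ-labelled group, the 9 to 10 members called lower had medians of -3.63 to -3.15, and the number of genes called was 546, with 1292 in DESeq2, 1653 with all 6 libraries and 123 to 3866 with 1 library left out. Against WT, 2 genes were called, with 347 in DESeq2, 123 with all 6 libraries and 3 to 4210 with 1 library left out. There, DESeq2 called 1 of the 10 lower, leaving out 1 library called 0 to 9 lower and 0 to 2 higher, and the median ran from -0.69 to -0.10. The sign of *lys4* against WT turned, to 0.04 (edgeR), 0.05 (DESeq2), 0.03 (upper quartile) and 0.04 (all 6 libraries). With 1 library left out it ran from -0.55 to 0.46, and *leu3* ran from -0.83 to 0.05, *ser3* from -0.54 to 0.15 and *met26* from -1.01 to 0.27, with the highest value without *pab1*-repressed replicate 2 in each case. The causes were not tested. A fit without one library assumes that the lone sample varies like the other group. Among the values of the 10 genes, 343 kept their direction and call, 19 kept their direction and gained a call, and 0 lost a call. Another 8 turned sign, counted whether or not they were called.

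With the replicate number as a block, 1764 genes were higher and 1819 lower in the *igo1*Δ-labelled group, 170 and 374 in *pab1*-repressed against it, and 6 and 15 (21 in all) against WT. All 10 genes were then called in the first 2 comparisons, *met26* with an adjusted p of 0.0293, while the rise of *lys7* under *pab1* repression was not called (0.0646). Deviations of same-numbered libraries correlated at 0.13, 0.12 and 0.02, so the numbers were not taken to pair the samples.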
